A study of Arabidopsis thaliana with 4 samples.

Results

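UPI (AT5G43580) and its relatives of the potato inhibitor I family, also called the PR-6 family of pathogenesis-related proteins, were followed in rosette leaves of Arabidopsis thaliana. The family was taken as 6 loci of the 33059 features in the table, UPI, AT5G43570, AT2G38870, AT2G38900, AT3G46860 and AT3G50020, and all 6 were present in it. The loci were brought together around UPI because its level was higher in the overexpressing plants, so the values of UPI and of its relatives in that contrast describe the choice and carry no test here. Libraries came from rosette leaves of plants aged 28 days, 2 from wild-type plants (WT) and 2 from plants that carried ERF4 behind the 35S promoter of cauliflower mosaic virus (OE). That promoter is active in most cells of the plant, and the labels do not give the accession, the number of transgenic lines or whether plants were pooled. The labels also do not say whether the libraries of a genotype came from separate plants, so their spread may be technical.

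Potato inhibitor I proteins are small inhibitors of serine proteases such as chymotrypsin and subtilisin. Each holds out an exposed loop that enters the active site of the protease and is cleaved only slowly. In potato and tomato leaves, members of the family accumulate after wounding and insect feeding under the control of jasmonate. In Arabidopsis, UPI is known for a role in resistance to necrotrophic fungi and to leaf-eating caterpillars. ERF4 belongs to the ethylene response factors, binds the GCC box of defence gene promoters and carries a motif that represses transcription.

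The second coding exons of the 3 members detected in these leaves are shown because they hold most of each coding sequence and let the likeness of the members be seen. They are the RefSeq sequences of the TAIR10.1 assembly, found by locus name and written 5′ to 3′. Coordinates are of TAIR10.1, and which build the submitters used is not given in the sources used here. For UPI the exon lies at chr5:17508098-17508297 on the minus strand, that of AT5G43570 at chr5:17507164-17507456 on the plus strand and that of AT2G38870 at chr2:16236546-16236739 on the minus strand. Capitals mark the 86 bases at which UPI was identical to both others in pairwise alignments.
UPI: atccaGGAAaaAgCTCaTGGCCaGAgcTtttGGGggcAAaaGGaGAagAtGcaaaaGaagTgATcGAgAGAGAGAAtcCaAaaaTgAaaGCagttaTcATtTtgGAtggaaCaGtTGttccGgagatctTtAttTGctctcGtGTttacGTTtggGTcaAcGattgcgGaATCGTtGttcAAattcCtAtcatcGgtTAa
AT5G43570: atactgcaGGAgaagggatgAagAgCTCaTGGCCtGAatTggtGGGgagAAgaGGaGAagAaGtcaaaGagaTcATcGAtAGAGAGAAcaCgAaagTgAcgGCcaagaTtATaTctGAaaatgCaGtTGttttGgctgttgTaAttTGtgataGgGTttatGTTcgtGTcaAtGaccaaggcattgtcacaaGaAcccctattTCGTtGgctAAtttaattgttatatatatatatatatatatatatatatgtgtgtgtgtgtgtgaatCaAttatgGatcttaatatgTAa
AT2G38870: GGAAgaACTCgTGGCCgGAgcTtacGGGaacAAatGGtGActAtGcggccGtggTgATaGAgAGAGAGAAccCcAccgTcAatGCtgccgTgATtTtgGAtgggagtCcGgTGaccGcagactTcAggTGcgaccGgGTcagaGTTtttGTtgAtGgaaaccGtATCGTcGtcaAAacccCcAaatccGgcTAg
The shared bases are scattered along the exon of UPI in short runs. The exon of AT5G43570, with 293 bases the longest beside 200 in UPI and 194 in AT2G38870, runs on through a repeat of ta and tg near its end. Over the whole coding sequence UPI has 300 bases, AT5G43570 has 312 and AT2G38870 has 213.

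Over the 15 pairs of members, coding identity ran from 56.8% to 76.1% of aligned bases. UPI was nearest to AT5G43570, at 69.7% over 231 aligned bases, and next to AT3G46860, at 66.7% over 240. The pair with the highest identity was AT2G38870 and AT2G38900, at 76.1% over 213 bases. The longest run of bases that any pair of transcripts had in common, between UPI and AT3G46860, was 13 bases. All 6 genes have 2 coding exons, and in each the intron falls after the first base of a codon. The intron varied from 108 bases in AT3G46860 to 691 bases in AT5G43570.

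**Figure D1:**
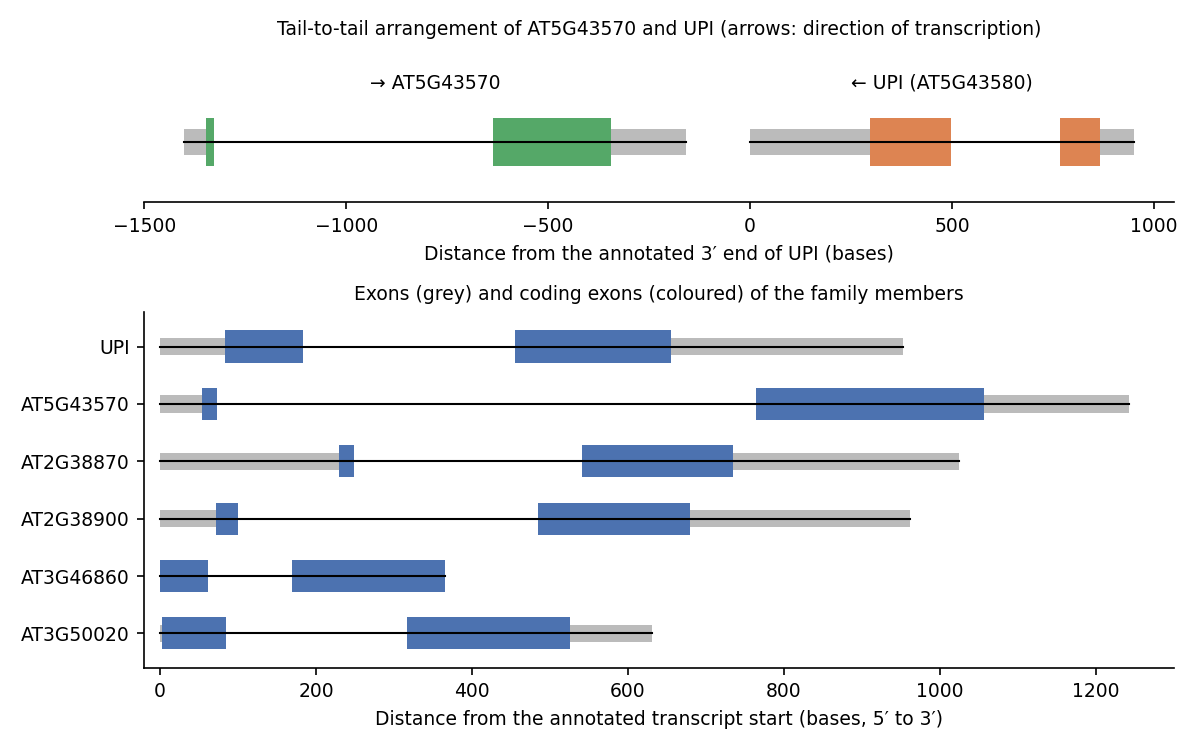
Upper panel, AT5G43570 and UPI drawn to scale by distance in bases from the annotated 3′ end of UPI, with arrows for the direction of transcription. Lower panel, exons (grey) and coding exons (coloured) of the 6 members by distance in bases from the transcript start: each has 2 coding exons, and the 3′ ends of AT5G43570 and UPI face each other across 159 bases.

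UPI and AT5G43570 are direct neighbours and are transcribed towards each other, with 159 bases between their annotated 3′ ends. AT2G38870 and AT2G38900 lie 5934 bases apart on chromosome 2 and are transcribed away from each other, with AT2G38880 and AT2G38890 between them. AT2G38905 overlaps the end of AT2G38900 on the other strand. AT3G46860 and AT3G50020 have no other member next to them. AT3G46860 does follow AT3G46850, a gene for a subtilisin-like protease, at a distance of 771 bases. The source labels do not state that the libraries kept strand, and without strand a transcript that ran past the end of UPI could not be told apart from one of AT5G43570 where it reached that gene.

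The 250 bases before the start of UPI and of its direct neighbour AT5G43570 are shown because ERF4 binds the GCC box. Both stood higher in OE, as AT2G38870 did, and UPI was chosen for that. The same stretch of AT2G38870 was searched but is not shown. UPI is from chr5:17508753-17509002 on the minus strand and AT5G43570 from chr5:17506150-17506399 on the plus strand, both of TAIR10.1. Capitals mark a match to any of the motifs searched.
UPI upstream: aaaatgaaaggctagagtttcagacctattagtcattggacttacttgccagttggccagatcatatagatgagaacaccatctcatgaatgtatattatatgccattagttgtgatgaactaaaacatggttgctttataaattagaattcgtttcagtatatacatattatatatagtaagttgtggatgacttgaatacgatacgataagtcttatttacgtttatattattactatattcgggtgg
AT5G43570 upstream: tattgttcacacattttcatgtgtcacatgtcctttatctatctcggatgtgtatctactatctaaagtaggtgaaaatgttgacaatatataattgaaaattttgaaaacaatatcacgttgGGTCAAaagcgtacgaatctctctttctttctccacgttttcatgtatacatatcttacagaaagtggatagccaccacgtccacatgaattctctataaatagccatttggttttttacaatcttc
The motifs searched on both strands were GCCGCC, the core of the GCC box, its longer form AGCCGCC, which contains the core, CACGTG, the G-box of bHLH and bZIP factors, and TTGACC, a W-box of WRKY factors. No member had GCCGCC or AGCCGCC in these 250 bases, which 1.87% and 0.587% of the 27443 protein-coding promoters of the same length held. TTGACC was found in 2 of 6 members, AT5G43570 (on the minus strand, hence written GGTCAA above) and AT3G50020, and in 12.2% of all promoters. CACGTG was found in AT2G38900 alone among the members and in 6.49% of all promoters. None of the motifs was found in the stretches before UPI, AT2G38870 and AT3G46860, which says only that these letters are not in these windows.

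Values were in TPM, transcripts per 1000000, which correct for transcript length and have the same sum in every library, so that levels of different genes can be compared and read depth is unknown. ERF4 (AT3G15210) was at 9.68 and 10.6 TPM in WT replicates 1 and 2 and at 24.5 and 28.8 TPM in OE replicates 1 and 2, in the direction of the labels, although transcripts of the native gene and of the introduced copy share 1 TPM value. Fold changes below are differences of log2(TPM + 1), OE minus WT, from 1 limma fit over the 20010 features that averaged 1 TPM or more, where a feature was called at a Benjamini-Hochberg adjusted p of 0.05. In that fit ERF4 had a log2 fold change of 1.31 (SE 0.351) and was not called (limma, Benjamini-Hochberg adjusted p = 0.381). Leaf markers summed to 60984 and 24542 TPM in WT replicates 1 and 2 and to 34556 and 40970 TPM in OE replicates 1 and 2. Among them LHB1B2, a light-harvesting gene, was listed at 0 in every library. The reason for that 0 was not tested, and a 0 in this table is not taken to mean that a transcript was absent. Markers of root were also present in all 4 libraries labelled as leaves. PYK10, a beta-glucosidase abundant in roots, was at 2785 to 4116 TPM, and EXPA7, an expansin of root hairs, was at 13.3 to 21.0 TPM. Flower markers summed to no more than 4.65 TPM in any library.

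In rosette leaves, 3 of the 6 family members had a level above 0 and 3 were listed at 0. UPI was at 22.3 and 12.9 TPM in WT replicates 1 and 2 and at 128 and 225 TPM in OE replicates 1 and 2. Both OE libraries lay above both WT libraries, by a gap of 105 TPM that exceeded the range of 96.9 TPM between the OE libraries. The ratio of the OE mean, 176 ± 68.5 TPM, to the WT mean, 17.615 ± 6.63 TPM, was 10.0 (SD, n = 2). The log2 fold change was 3.24 (SE 0.436). In WT leaves UPI ranked 6917 and 11598 among the features ordered by level, and in OE leaves it ranked 1423 and 605, of 23087 to 23683 features above 0. In bulk leaf tissue, more cells that express a gene and more transcript per cell cannot be told apart.

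AT5G43570, the tail-to-tail neighbour of UPI and a predicted inhibitor of the same type, was the least abundant of the detected members. It was listed at 0 in WT replicate 1 and had 0.70 TPM in WT replicate 2, against 9.40 and 6.99 TPM in OE replicates 1 and 2. The genotypes did not overlap, and the gap of 6.29 TPM exceeded the range of 2.41 TPM between the OE libraries. It passed the filter on low values only through its level in OE, so that among tested features it had to differ. Its log2 fold change was 2.81 (SE 0.455), and this size depended on the pseudocount, being 4.86 with 0.1 and 1.30 with 5. UPI and AT5G43570 had opposite orders within a genotype. UPI was higher in WT replicate 1 than in WT replicate 2 and higher in OE replicate 2 than in OE replicate 1, whereas AT5G43570 was lower in WT replicate 1 and lower in OE replicate 2. The level of UPI was 13.6 times that of AT5G43570 in OE replicate 1 and 32.1 times in OE replicate 2.

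AT2G38870, another predicted serine protease inhibitor of the family, was the most abundant member in WT leaves. It had 28.4 and 55.2 TPM in WT replicates 1 and 2 and 70.1 and 82.4 TPM in OE replicates 1 and 2. The OE libraries lay above the WT libraries, but the gap of 14.9 TPM was smaller than the range of 26.8 TPM between the WT libraries. The ratio of the OE mean, 76.3 ± 8.67 TPM, to the WT mean, 41.8 ± 18.9 TPM, was 1.82 (SD, n = 2). The log2 fold change was 0.92 (SE 0.421). With WT replicate 1 left out it was 0.45 and with WT replicate 2 left out 1.39, in fits where the median over all features was -0.16 and 0.14.

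**Figure D2:**
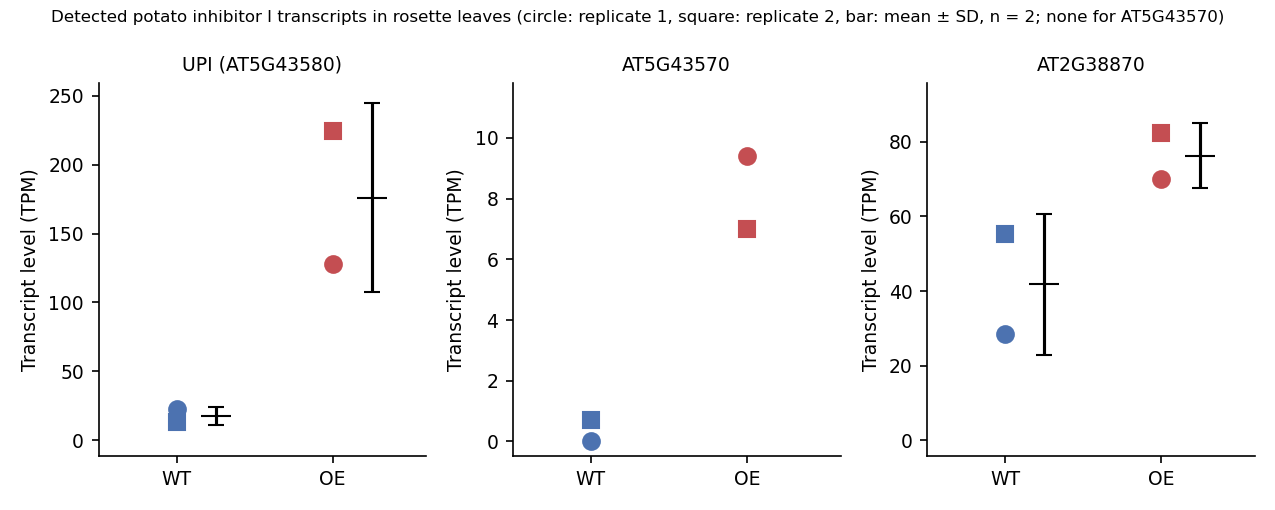
Level in TPM of the 3 detected members in each WT and OE library, with circles for replicate 1, squares for replicate 2 and bars for the mean ± SD (n = 2), left out for AT5G43570 because of its 0. Each panel has its own scale: UPI spans 12.9 to 225 TPM, AT5G43570 0 to 9.40 TPM and AT2G38870 28.4 to 82.4 TPM, and in each the OE libraries stand above the WT libraries.

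AT2G38900, AT3G46860 and AT3G50020, which the reference also describes as potato inhibitor I proteins, were listed at 0 in all 4 libraries. So were 24.2% of all features in the table. AT2G38900 is the nearest relative of AT2G38870 in coding sequence, and the longest run shared by their transcripts is 12 bases. Of the 3 members that passed the filter, 1, UPI, was called, in the direction of OE, beside 0.0900% of all features tested called in either direction and 0.0600% called higher in OE. All 3 had both OE libraries above both WT libraries, an order that 13.7% of all features tested had. Because the family was brought together from this contrast, nothing is read from either count. No feature was called, UPI included, with quantile normalization, with median-ratio scaling, with no filter on low values, or with either WT library left out.

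The summed level of the family was 50.7 and 68.8 TPM in WT replicates 1 and 2 and 207 and 314 TPM in OE replicates 1 and 2. The means were 59.8 ± 12.8 and 261 ± 75.5 TPM (SD, n = 2), a ratio of 4.36. The leading member differed between the genotypes. UPI was chosen for its rise, so this difference and the ratio of the sums follow in part from that choice. Both are a description. In WT, AT2G38870 made up 56.0% and 80.2% of the summed level and UPI 44.0% and 18.8%. In OE, UPI made up 61.6% and 71.5% and AT2G38870 33.9% and 26.2%. AT5G43570 held no more than 4.54% in any library. The level of UPI relative to AT2G38870 was 0.784 and 0.234 in the WT libraries and 1.82 and 2.73 in the OE libraries, a ratio within a library that the scaling of TPM does not touch.

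**Figure D3:**
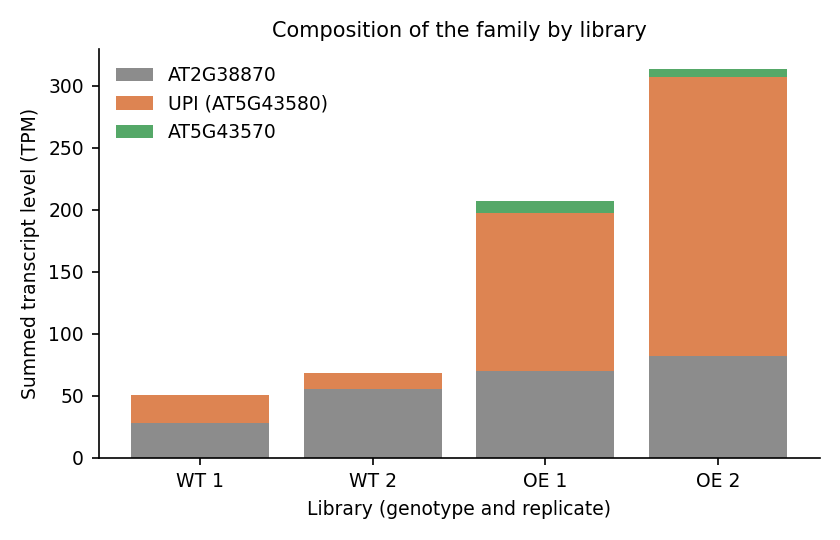
Summed level in TPM of the detected members in each library, stacked by member, with AT2G38870 at the base, UPI above it and AT5G43570 on top. The part of AT2G38870 goes from 28.4 and 55.2 TPM in WT to 70.1 and 82.4 TPM in OE, while that of UPI goes from 22.3 and 12.9 TPM to 128 and 225 TPM.

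Other genes with a library profile like that of UPI were ranked by the Euclidean distance between log2(TPM + 1) values, each centred on the gene's own mean over the 4 libraries. Among 7110 protein-coding genes with a symbol and a mean of at least 5 TPM, the nearest was the EXORDIUM-like gene PHI-1, at a distance of 0.487. It had 7.17 and 4.90 TPM in WT against 70.95 and 104 TPM in OE. BT2 and BT1, scaffold proteins with BTB and TAZ domains, followed at 0.588 and 0.756, then TCH4, a xyloglucan endotransglucosylase induced by touch, at 0.859 and BHLH101, which acts in the response to low iron, at 1.07. PHI-1, BT1 and BT2 shared with UPI the higher level in WT replicate 1 than in WT replicate 2 and in OE replicate 2 than in OE replicate 1. TCH4 and BHLH101 had the reverse order in WT, at 17.7 and 20.6 TPM and at 23.3 and 24.4 TPM. BHLH101 also had it in OE, at 176 and 149 TPM in replicates 1 and 2. The order within a genotype enters the distance, so a like order follows in part from the ranking. AT5G43570 stood at a distance of 1.43, with 9 ranked genes nearer to UPI, and AT2G38870 at 2.64, with 284 nearer. These distances rest on 4 libraries of 2 genotypes, which all genes share, and are a description.

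**Figure D4:**
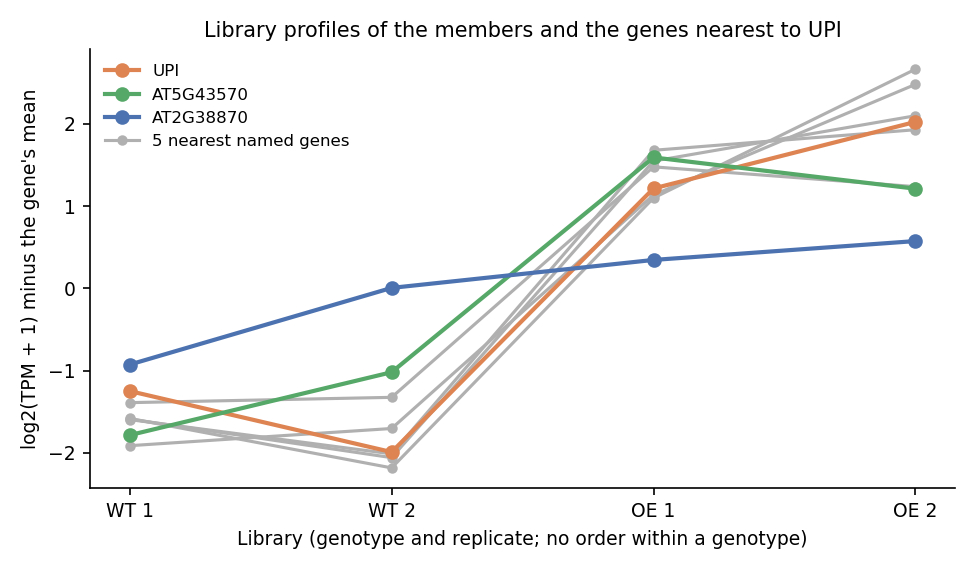
log2(TPM + 1) minus the gene's mean over the 4 libraries, for UPI, AT5G43570, AT2G38870 and the 5 genes nearest to UPI (grey). UPI and the grey genes lie low in both WT libraries and high in both OE libraries, and AT2G38870 spans a smaller range; lines join libraries of 1 gene and imply no order within a genotype.

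Of the 10 genes outside the family that flank its members, 6 were tested, none was called by limma, beside 0.0900% of all features tested, and 1, YLS5, had an unadjusted p under 0.05, as 1061 of the 20010 tested features did. At so low a share of calls, none among 6 is a count near the background. On the far side of UPI, AT5G43590 had 0.98 and 3.07 TPM in WT against 2.66 and 4.69 TPM in OE, so its genotypes overlapped. On the far side of AT5G43570, AT5G43560 had 24.6 and 44.1 TPM in WT against 36.5 and 34.0 TPM in OE, also with overlap. Beside AT2G38870, YLS5, a gene named for its expression in yellowing leaves, had 52.4 and 66.7 TPM in WT against 27.2 and 18.5 TPM in OE. That is a log2 fold change of -1.36 (SE 0.382), opposite in sign to its neighbour, and it was not called (limma, Benjamini-Hochberg adjusted p = 0.416). NF-YB1, a subunit of the NF-Y transcription factor on its other side, had 25.0 and 25.8 TPM in WT against 34.7 and 25.2 TPM in OE. AT3G46850, the subtilase gene before AT3G46860, was listed at 0 in every library, as AT3G46860 was. Each of the other flanking genes, AT2G38890, AT2G38905, AT3G46870, AT3G50010 and AT3G50030, had at most 8.42 TPM in any library.

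Arabidopsis leaves hold further families of protease inhibitors, and of 31 such genes in 4 families 19 were tested. None was called in either direction (limma, Benjamini-Hochberg), and 0 had an unadjusted p under 0.05, beside 0.0600% of all features called higher and 0.0300% called lower. Their median log2 fold change was 0.14, beside -0.016 over all features tested, and 3 had every OE library above every WT library and 3 had the reverse. Over all features tested, 13.7% had the first order and 14.2% the second. Their log2 fold changes ran from -1.01 to 1.22, so that UPI and AT5G43570 lay outside that range and AT2G38870 inside it. UPI was chosen for its rise, and AT5G43570 passed the filter only through its level in OE. Nothing is therefore read from their place outside the range. No difference between the families was tested.

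Kunitz inhibitors, which block trypsin and related serine proteases, had 5 of 7 genes tested and a median log2 fold change of 0.56. KTI1, an inhibitor of programmed cell death in leaves, had 19.7 and 178 TPM in WT against 118 and 169 TPM in OE, with WT replicate 2 above both OE libraries. AT1G17860, another Kunitz inhibitor, had 129 and 149 TPM in WT against 152 and 366 TPM in OE. Its genotypes did not overlap, but the gap was far smaller than the range between the OE libraries. Both had a limma adjusted p (Benjamini-Hochberg) of 1.0.

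Mustard-type trypsin inhibitors, small knottin proteins, had 5 of 6 genes tested, all with a negative log2 fold change, and a median of -0.77. AT2G43550 had 119 and 39.8 TPM in WT against 45.7 and 24.9 TPM in OE, with overlap. AT2G43535 had 116 and 307 TPM in WT against 111 and 92.5 TPM in OE, a gap much smaller than the spread within WT. Neither was called (limma, Benjamini-Hochberg adjusted p = 1.0 for both).

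Cystatins, which block cysteine proteases of the papain type, had all 7 genes tested and a median log2 fold change of 0.38. AT4G16500 had 32.3 and 81.5 TPM in WT against 71.1 and 87.0 TPM in OE, and AT5G47550 17.3 and 17.2 TPM in WT against 19.6 and 28.5 TPM in OE. Of 11 serpins, which trap proteases irreversibly, 2 were tested. SERPIN1, an inhibitor of the protease RD21, had 24.2 and 35.0 TPM in WT against 32.8 and 24.1 TPM in OE, and CCP3 had 3.94 and 5.29 TPM in WT against 3.54 and 2.53 TPM in OE. Of these 4 genes none was called (limma, Benjamini-Hochberg adjusted p = 1.0 for each).

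**Figure D5:**
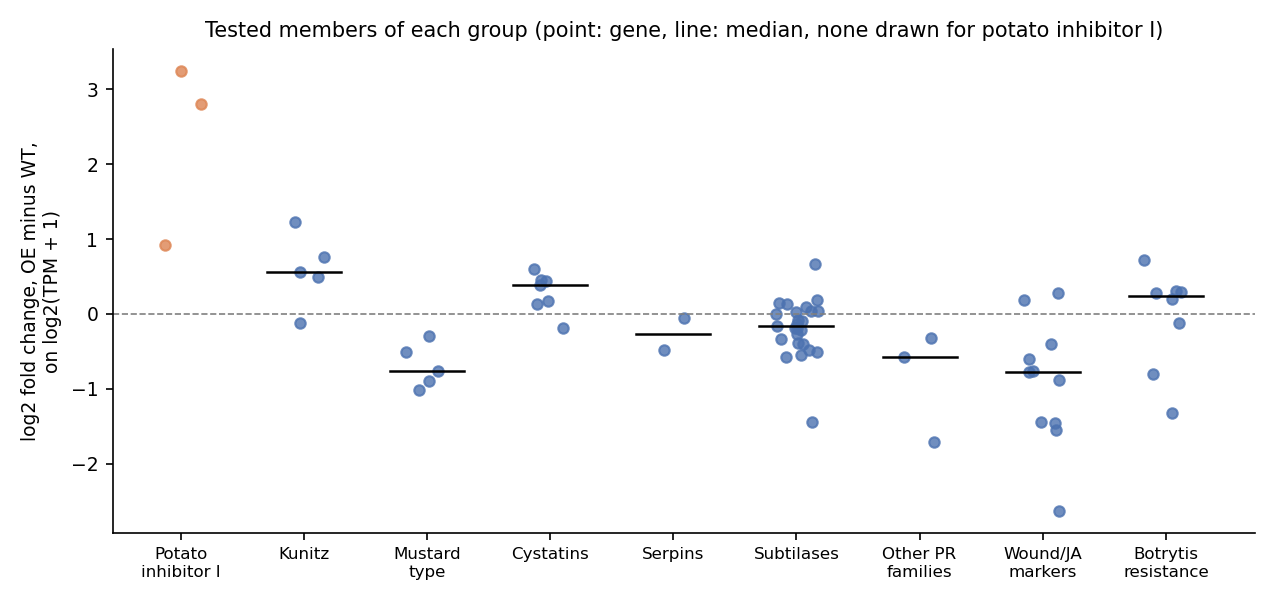
log2 fold change, OE minus WT on log2(TPM + 1), of the tested members of the potato inhibitor I family and of 8 further gene groups, with 1 point per gene and a line at the median, left out for the first group because its members were chosen from this contrast. UPI at 3.24 and AT5G43570 at 2.81 lie above every point of the other groups, and nothing is read from this place because of that choice. The lowest point is the wound gene NATA1 at -2.63, which rests on WT replicate 2 alone.

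Subtilases are subtilisin-like serine proteases, the class of enzyme that the potato inhibitor I family is known to block, and 25 of 40 listed were tested. None was called by limma, 1 had an unadjusted p under 0.05, 2 had every OE library above every WT library and 8 had every OE library below, and the median log2 fold change was -0.16. Over all features tested, 0.0900% were called, 13.7% had the order with OE above and 14.2% that with OE below, and the difference between the subtilases and these shares was not tested. The 2 with the smallest p were AT5G45650 and SBT4.12. AT5G45650 had 13.3 and 4.70 TPM in WT against 1.78 and 2.99 TPM in OE (log2 fold change -1.44 with SE 0.489, adjusted p = 0.595 by limma). SBT4.12 had 25.9 and 37.0 TPM in WT against 57.3 and 43.5 TPM in OE (log2 fold change 0.67 with SE 0.383, adjusted p = 1.0 by limma). ARA12, needed for the release of seed mucilage, and AT3G14067, linked to senescence, were picked with their values in view, as abundant leaf subtilases. ARA12 ran from 84.7 to 116 TPM and AT3G14067 from 74.2 to 99.8 TPM over the 4 libraries, with overlap between the genotypes in each. TPP2 and AT2G05920, of like level, were also picked with their values in view. TPP2 ran from 77.4 to 132 TPM, with overlap. AT2G05920 had 88.8 and 73.1 TPM in WT against 69.65 and 52.9 TPM in OE, without overlap.

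Genes of other pathogenesis-related families, wound and jasmonate markers and genes of Botrytis resistance gave no limma call among 3, 11 and 8 tested members, of which 1, 2 and 1 had an unadjusted p under 0.05. Of the 20010 features tested, 0.0900% were called and 1061 had an unadjusted p under 0.05, so no call among so few members is near the background. Their median log2 fold changes were -0.57, -0.78 and 0.24. In each list the summed level differed between WT replicates 1 and 2. It was 103 and 1137 TPM for the pathogenesis-related genes, 140 and 241 TPM for the wound and jasmonate markers and 187 and 472 TPM for the Botrytis genes. Of the pathogenesis-related genes, PDF1.2, a defensin induced by jasmonate and ethylene, had 0.62 and 5.66 TPM in WT and a listed value of 0 in each OE library. It passed the filter on low values only through WT. PR4, a chitin-binding protein, had 95.0 and 1079 TPM in WT against 329 and 141 TPM in OE. Of the wound and jasmonate markers, 5 of 11 had every OE library below every WT library and 0 had the reverse, orders that 14.2% and 13.7% of all features tested had. Of the 5, LOX3, VSP2 and JAZ5, the last named with its values in view, averaged 0.74, 0.53 and 0.455 TPM in OE. They passed the filter on low values only through WT, so that among tested features they had to be lower in OE on average. Nothing is therefore read from this count. LOX3, a lipoxygenase of jasmonate synthesis, had 4.07 and 4.16 TPM in WT against 0.77 and 0.71 TPM in OE (log2 fold change -1.56 with SE 0.430, adjusted p = 0.398 by limma). VSP2, a storage protein induced by jasmonate, had 2.48 and 3.59 TPM in WT against 0.08 and 0.98 TPM in OE (log2 fold change -1.45 with SE 0.497, adjusted p = 0.606 by limma). NATA1, an acetyltransferase that makes a defence compound from ornithine, had the lowest log2 fold change of the list and was picked with its values in view. It had 0.05 and 37.2 TPM in WT against 0 and 0.05 TPM in OE, so its log2 fold change of -2.63 (SE 1.21, adjusted p = 0.948 by limma) rested on WT replicate 2 alone and the genotypes overlapped. LOX3 and VSP2 had log2 fold changes of opposite sign to that of UPI, and for both the filter allowed little else. Among the Botrytis genes, PAD3, the last enzyme of camalexin synthesis, had 3.95 and 6.14 TPM in WT against 2.80 and 0.49 TPM in OE, and WRKY33, a regulator of camalexin synthesis, had 19.5 and 39.0 TPM in WT against 61.3 and 34.8 TPM in OE, with overlap.

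Beside the levels of UPI, markers of other organs were compared between the genotypes. The 6 root markers summed to 3172 and 4179 TPM in WT against 2850 and 3814 TPM in OE, with overlap, and none of the 6 was at 0 in any library. The 9 seed markers summed to 50.5 and 69.2 TPM in WT against 24.4 and 9.87 TPM in OE, without overlap. Of these, 8 had a lower mean in OE. The exception was SESA2, a seed storage albumin, with 0.26 and 11.7 TPM in WT against 23.8 and 3.51 TPM in OE, which made up most of the sum in OE replicate 1. The other albumins, SESA1, SESA3 and SESA4, were listed at 0 in both OE libraries, and SESA1 also in WT replicate 1. Of the 5 seed markers tested, 1 was called lower and 0 higher, beside 0.0300% and 0.0600% of all features tested. The called one was CRU3, a cruciferin, with 10.0 and 25.2 TPM in WT against 0.04 and 0.21 TPM in OE (log2 fold change -3.92 with SE 0.481, adjusted p = 0.0182 by limma). CRU3 and OLEO1, another seed marker with 0.14 and 0.75 TPM in OE, passed the filter on low values only through WT. Among tested features both had to be lower in OE on average, so nothing is read from the call. CRU3 was also not called with quantile normalization, median-ratio scaling or no filter on low values. The part of these organs in the level of UPI was not tested.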

How the data were processed

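RNA from rosette leaves was sequenced in 4 libraries, 2 WT and 2 OE. The authors deposited 1 table of TPM per feature and library. The submitters' processing notes name fastp, HISAT and RSEM, without versions. Depth per library is unknown, because TPM keeps no read number, and no counting interval is given. The second WT library is titled replicate 2 but its description and its column carry the number 3, and it was matched to the column by the description and called replicate 2 here after its title. The replicate block and the check of pairing use the numbers of the titles, and the authors' mean columns entered no test.

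Values were log2(TPM + 1) for the 20010 features that averaged 1 TPM or more. OE was compared with WT in limma 3.58.1 (R 4.3.3) with genotype as the single term and a variance prior that follows the mean level, and p-values were adjusted after Benjamini-Hochberg across every tested feature. The fit left 2 residual degrees of freedom, to which the prior brought 8.73. For this comparison the fit was checked on simulated data of 20010 features. Of 50 genes changed 2-fold 0% were called, of 50 changed 4-fold 32% and of 50 changed 8-fold 90%. A lack of calls above therefore says little about changes near 2-fold or 4-fold. The simulated variances were drawn from the fitted prior and the changed genes from the more abundant features, so these shares may not hold for genes of low level. An exact two-sided permutation test of 2 against 2 libraries cannot give a p below 0.333.

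All 32548 nuclear locus names matched the RefSeq table of TAIR10.1, from which gene models and sequences were read by locus. Coding identity came from global alignment in Biopython 1.88, for the first annotated transcript of each gene. Protein sequences were not analysed here. Figures used matplotlib 3.10.9 in Python 3.11.15.

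The members and gene lists were chosen with earlier results of these data known. Named genes were the 6 members, ERF4, the 2 genes of smallest p and any called gene in each of 8 lists, the flanking genes, the 5 nearest profiles and PYK10, the highest root marker. The highest markers of leaf, seed and flower were not named. Of further names the text says that they were picked with values in view, or they belong to a marker list. Alternatives changed the pseudocount (0.1 or 5), the filter (none, or an average of 5 TPM), the scaling (quantile, median-ratio, or organelle features taken out), the variance prior (robust, or with no trend) and the model (a block for the replicate number), or left out 1 library at a time.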

Additional observations from a re-analysis of the deposited data

How the results depend on the processing

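The log2 fold change of UPI lay between 2.98 and 3.31 under 10 alternatives that kept all libraries and between 2.84 and 3.65 when 1 library was left out, each within the spread between replicates of the value reported. That of AT2G38870 lay between 0.85 and 0.94, and between 0.45 and 1.39 when 1 library was left out. That of AT5G43570, which is not tested at a mean of at least 5 TPM, moved with the pseudocount, to 4.86 with 0.1 and 1.30 with 5, and lay between 2.42 and 3.19 when 1 library was left out. No member changed sign.

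The number of features called by limma depended on the settings. It was 18 as reported, 0 without a filter on low values, 0 with quantile normalization and 0 with median-ratio scaling, where 1072, 1114 and 1129 features had an unadjusted p under 0.05 beside 1061 as reported. It was 63 with a mean of at least 5 TPM, 108 with a robust variance prior and 338 with the replicate number as a block. The degrees of freedom that the prior brought also differed. They were 3.49 without a filter, 3.21 with quantile normalization and 3.19 with median-ratio scaling. With a mean of at least 5 TPM they were 17.1, with the robust prior 34.0 and with the block infinite. Without 1 library it ranged from 0 to 147. Leaving out WT replicate 1 or WT replicate 2 gave 0, where 1088 and 1707 features had an unadjusted p under 0.05, while leaving out OE replicate 1 gave 147 and OE replicate 2 gave 51. The cause was not tested. Deviations of libraries with the same number correlated at 0.033 across tested features, so the numbers are not taken to pair the libraries. The column number 3 of WT replicate 2 has no OE library to pair with, so the block holds for the numbers in the titles only.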
